A study of Rattus norvegicus with 8 samples.

Results

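Genes that are switched on by cell activity, growth signals or injury were followed across rat nodose ganglia: Fos, Fosb, Jun, Junb, Egr1, Npas4, Arc, Nr4a1 and Atf3. They were selected by symbol, each symbol has 1 entry in the gene list, and together they are 9 of 30560 genes. The nodose ganglion holds the cell bodies of vagal sensory neurons that innervate thoracic and abdominal organs, and the adjoining jugular ganglion holds neurons of a different embryonic origin. Nuclei came from untreated Long Evans rats of 8 weeks, 18 of each sex, which were killed by decapitation under isoflurane before the ganglia of both sides were removed and frozen separately. Each of 12 pools combined 1 side from 6 rats, giving 3 pools labelled male and left (ML1 to ML3), 3 male and right (MR1 to MR3), 3 female and left (FL1 to FL3) and 3 female and right (FR1 to FR3). No group was stimulated or injured, so that the values describe the state of ganglia after anaesthesia, dissection and freezing. Pools are mixtures of 6 rats. By these numbers the left and right pools of a sex come from the same 18 rats, but which pools share rats is not given.

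Immediate early genes are transcribed within minutes of a stimulus without new protein synthesis, from promoters that await phosphorylation of bound factors such as CREB and SRF. Fos and Fosb proteins pair with Jun or Junb to form the transcription factor AP-1, Egr1 is a zinc finger factor and Nr4a1 an orphan nuclear receptor. Npas4 is a transcription factor induced by calcium entry in neurons, and Arc encodes a protein that regulates glutamate receptor traffic at synapses. Atf3, a relative of CREB, is known for its rise in sensory neurons after axon injury, where Jun rises as well, and Jun also rises in Schwann cells of injured nerves. In nuclei, the measured transcripts are mostly recently made ones.

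Promoters of 5 of the 9 genes could be matched to RefSeq (GRCr8). In the 250 bases before the start, the motifs were searched on both strands. The CREB core site TGACG occurred in 18.2% of 33469 rat promoters, and TATAAA occurred in 12.9%. The promoters of Nr4a1 (chr7:134259888-134260137, plus strand) and Junb (chr19:40080876-40081125, plus strand) are shown as examples, with matches in capitals. These coordinates are of GRCr8, not of the build named in the submitters' processing notes.
Nr4a1: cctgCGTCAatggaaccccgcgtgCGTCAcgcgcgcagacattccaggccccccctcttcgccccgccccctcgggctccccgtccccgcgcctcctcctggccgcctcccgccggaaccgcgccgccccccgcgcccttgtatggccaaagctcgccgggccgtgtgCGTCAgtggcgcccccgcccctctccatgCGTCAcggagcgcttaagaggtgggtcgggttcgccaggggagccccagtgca
Junb: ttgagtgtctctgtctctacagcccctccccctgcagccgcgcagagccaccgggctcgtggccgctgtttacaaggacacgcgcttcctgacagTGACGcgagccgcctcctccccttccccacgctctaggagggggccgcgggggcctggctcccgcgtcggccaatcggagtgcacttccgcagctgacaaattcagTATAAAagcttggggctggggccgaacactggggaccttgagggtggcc
Nr4a1 held 4 TGACG core sites, written CGTCA where they lie on the minus strand, at 246, 226, 82 and 53 bases before the start. Junb held 1 core site at 155 bases and 1 TATAAA at 49 bases. The Egr1 promoter held 2 core sites and 2 CArG boxes, the sites bound by SRF, which occurred in 1.497% of promoters. Neither the full site TGACGTCA, present in 1.59% of promoters and overlapping the core site, nor the AP-1 motif TGANTCA, present in 6.34%, occurred in these 5 windows. Fosb held no core site and 1 TATAAA at 180 bases, which lies on the opposite strand to that of Junb. Npas4 held none of the motifs searched. A match is a run of letters and not a measured binding site.

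After filtering, 36738 nuclei with 139954192 UMIs (unique molecular identifiers, 1 per captured transcript) and a median of 2680 UMIs remained. Nuclei were clustered and named by likeness to markers, with class names shortened here: 24419 nodose neurons, 2479 jugular neurons, 2554 satellite glia, 1815 myelinating Schwann cells and 1088 vascular nuclei. All neurons, 27117 nuclei, include 219 of an unnamed neuron cluster. Another 3021 nuclei carried mixed markers, such as those of neurons and satellite glia, and 373 were skeletal muscle. Both are left out of the class comparisons. A cluster of 626 nuclei led by the glutamate receptor gene Grin2b carried myelin and glial markers, with the myelin gene Mbp at 1772 CPM (the UMIs of a gene scaled to 1000000 UMIs of the class) against 1950 CPM in myelinating Schwann cells, but no listed marker among its 10 leading genes, and stays unnamed. Vascular nuclei joined 385 endothelial nuclei with a cluster of mixed endothelial and mural markers. Clusters were made from the same nuclei, so levels between classes are described without a test. In 2 pools, summed levels of Ddx3y, Kdm5d, Eif2s3y and Usp9y did not match the sex label. These Y-linked genes had 2.88 CPM in ML1, where the other male-labelled pools had 84.4 to 91.3, and 88.7 CPM in FL1, where the range was 2.73 to 3.95 CPM over the remaining female-labelled pools. The differences by labelled sex described for single genes in neurons are therefore also given without both pools.

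All 9 genes were sparse. Jun was the most detected, with 3059 UMIs in 2600 nuclei (7.08%). Nr4a1 had 1451 UMIs in 1306 nuclei (3.56%), Egr1 721 UMIs in 634 nuclei (1.73%) and Atf3 581 UMIs in 519 nuclei (1.41%). Fos had 455 UMIs in 401 nuclei (1.09%), Junb 393 UMIs in 385 nuclei (1.05%) and Fosb 305 UMIs in 260 nuclei (0.708%). Npas4 had 45 UMIs in 43 nuclei and Arc had 32 UMIs in 31 nuclei. The most UMIs of 1 gene in a nucleus were 9, for Egr1. Levels are compared below within a gene, since transcript length differs between genes.

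Fos was concentrated outside neurons. Its level in nodose neurons ranged from 0.529 CPM in ML1 to 2.16 CPM in FL2, with a mean of 1.57 ± 0.521 CPM (SD, n = 12 pools). In myelinating Schwann cells it ranged from 10.9 to 53.6 CPM (22.4 ± 12.01, SD, n = 12 pools), and in vascular nuclei from 3.95 to 46.0 CPM (18.2 ± 11.99, SD, n = 12 pools). The Schwann level was 14.3-fold and the vascular level 11.8-fold that of all neurons, and neither range overlapped that of neurons. Satellite glia, which wrap the neuronal cell bodies, had 3.05 CPM from 27 UMIs and overlapped the neurons. Schwann cells exceeded vascular nuclei in 8 of 12 pools, so that the order of these 2 classes is within their spread. Neurons made up 73.8% of nuclei but gave 38.9% of Fos UMIs, whereas the Schwann class and the Grin2b-led cluster, 4.94% and 1.70% of nuclei, gave 16.7% and 17.1%.

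**Figure D1:**
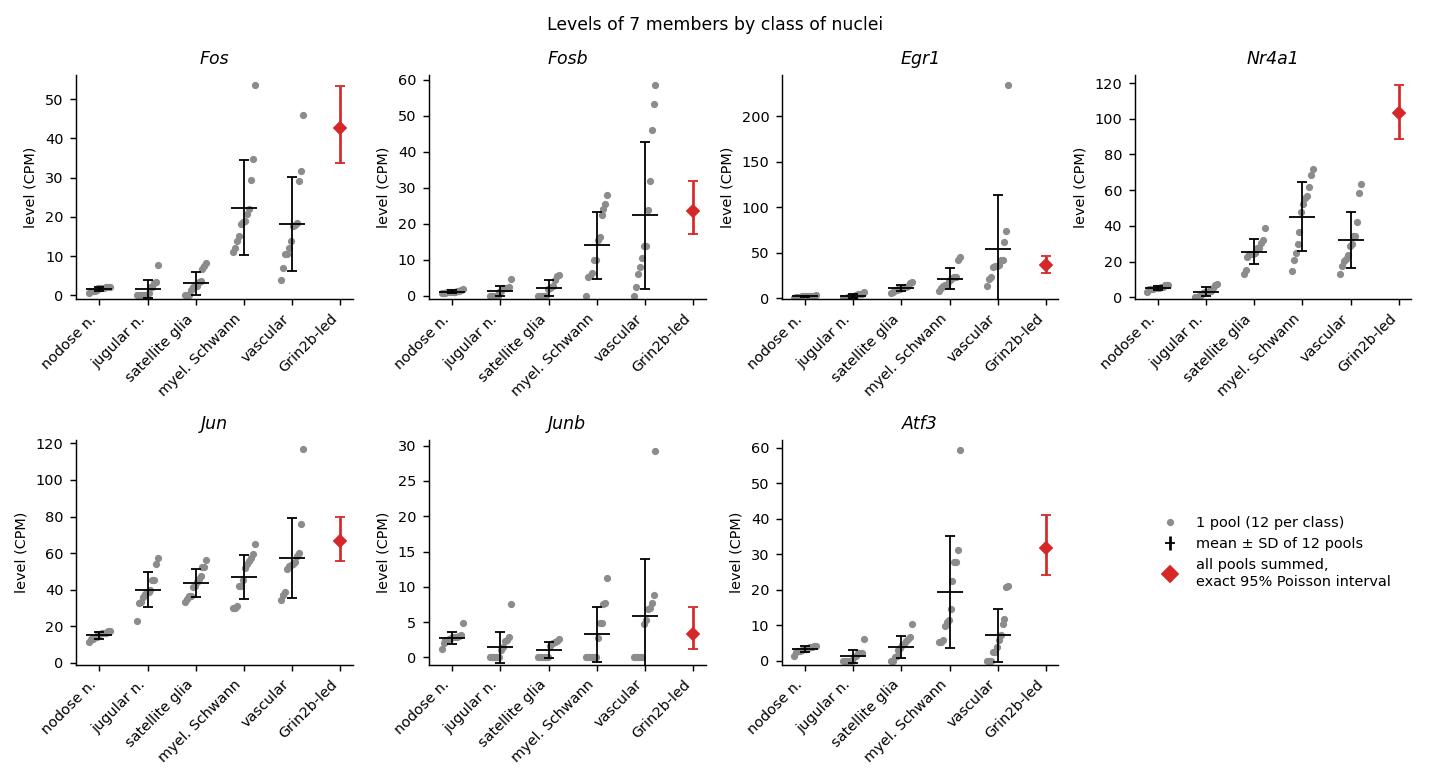
Levels of 7 genes (CPM, linear axes) in 6 classes of nuclei. Grey points are the 12 pools, black bars the mean ± SD (cut at the lower axis limit where they reach below it), and red diamonds the Grin2b-led cluster summed over pools with its exact 95% Poisson interval, since 1 pool had only 19 of its nuclei. Fos in Schwann cells starts at 10.9 CPM, above every pool of neurons, and Jun in jugular neurons starts at 22.7 CPM, above the nodose pools.

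Fosb followed a similar order, with 1.08 CPM in nodose neurons, 14.4 CPM in Schwann cells and 17.0 CPM in vascular nuclei. Both non-neuronal classes exceeded neurons in 11 of 12 pools, and each had a pool with no Fosb UMI. Among the classes with values in every pool, Egr1 was highest in vascular nuclei, at 13.7 CPM in FL2, a median of 36.3 CPM and 234 CPM in FL3. In all neurons Egr1 reached 1.47 to 3.34 CPM (2.41 ± 0.556, SD, n = 12 pools), so that the vascular and neuronal ranges did not overlap. In FL3, where 1 UMI in vascular nuclei equals 14.6 CPM, 9 Egr1 UMIs came from 1 nucleus, so the 234 CPM rests in large part on it. Without that nucleus the class summed over the 12 pools fell from 45.4 to 42.3 CPM. Egr1 in satellite glia, 5.65 to 18.4 CPM, was 4.89-fold the level in neurons and higher in all 12 pools. The 77 fibroblast nuclei had 49.4 CPM of Egr1 from 6 UMIs.

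Nr4a1 was lower in neurons than in each of the 3 non-neuronal classes in all 12 pools. Neurons had 3.205 to 6.95 CPM (5.37 ± 1.057, SD, n = 12 pools), satellite glia 13.1 to 38.8 CPM and Schwann cells 15.0 to 71.9 CPM. Vascular nuclei had 13.2 to 63.7 CPM and exceeded satellite glia in 8 of 12 pools, so their order is within the spread. In satellite glia the summed Nr4a1 level was 4.98-fold that of neurons, beside 1.92-fold for Fos, and this difference between the genes was not tested.

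Jun differed between the 2 kinds of sensory neuron. Jugular neurons had 22.7 CPM in MR2, a median of 38.7 CPM and 57.4 CPM in FL2, with a mean of 40.0 ± 9.40 CPM (SD, n = 12 pools). Nodose neurons had 11.4 to 17.3 CPM, with a mean of 15.0 ± 1.89 CPM (SD, n = 12 pools). The ranges did not overlap, and the jugular level was 2.68-fold higher. Jun in jugular neurons was close to that in satellite glia (43.4 CPM), Schwann cells (48.2 CPM) and vascular nuclei (53.1 CPM), whose ranges over pools overlapped it. No other member separated the pools of the 2 kinds of neuron. Junb, Nr4a1 and Atf3 were lower in jugular neurons in 10, 10 and 11 of 12 pools, at 0.578, 0.601 and 0.535 of the nodose level, with overlapping ranges. Jugular neurons had only 15, 30 and 16 UMIs of these genes. Fos, Egr1 and Fosb were at 1.37, 1.36 and 1.24 times the nodose level, from 19, 28 and 12 jugular UMIs, but higher in jugular neurons in only 4, 5 and 7 of 12 pools.

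Atf3 was higher in Schwann cells than in neurons in all 12 pools, at 5.21 to 59.2 CPM against 1.52 to 4.40 CPM, a 5.57-fold difference of the summed levels. The highest pool, MR2, held 21 of the 59 Schwann UMIs, 5 of them in 1 nucleus, and without that nucleus the class had 16.2 CPM instead of 17.7. Vascular nuclei had 6.64 CPM of Atf3 from 18 UMIs and overlapped the neurons. Junb was the member least different between classes, with 2.88 CPM in nodose neurons, 1.35 CPM in satellite glia, 4.49 CPM in Schwann cells and 4.43 CPM in vascular nuclei. Schwann and vascular nuclei exceeded neurons in 5 and 6 of 12 pools. Neurons gave 78.1% of all Junb UMIs, close to their 79.6% of all UMIs.

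Npas4 and Arc were near the limit of detection. Npas4 had 41 of its 45 UMIs in neurons, or 0.368 CPM, and no UMI in Schwann cells, where a count of 0 allows up to 0.898 CPM (3 UMIs of the class total). The absence of Npas4 from Schwann cells can therefore not be told from the neuronal level at this depth. Arc had 20 UMIs in neurons (0.180 CPM) and 7 in satellite glia (0.790 CPM, exact 95% Poisson interval 0.318 to 1.63). Intervals and limits cover counting error only.

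Depth differed between classes, with median UMIs per nucleus of 3002 in neurons, 2279 in satellite glia, 2166 in the Grin2b-led cluster, 1660 in vascular nuclei and 1346 in Schwann cells. Nuclei were therefore also thinned to 1000 UMIs each, leaving out the shallower ones, which were 3.86% of neurons and 18.1% of Schwann cells. At this depth, 0.203% of 26071 neurons had a Fos UMI (exact binomial 95% interval 0.152 to 0.266), against 2.09% of 1487 Schwann nuclei (1.42 to 2.95), 2.20% of 954 vascular nuclei (1.37 to 3.35) and 4.56% of 614 nuclei of the Grin2b-led cluster (3.05 to 6.52). Nr4a1 was found in 0.487% of neurons and 10.8% of the Grin2b-led cluster. Without thinning, these Nr4a1 shares were 2.09% and 22.4%. At least 1 of the 9 genes was detected in 3.06% of thinned neurons, 8.81% of satellite glia, 15.3% of Schwann cells, 17.0% of vascular nuclei and 23.3% of the Grin2b-led cluster.

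Markers of other classes were also found in neuronal nuclei, and whether they came as free RNA was not tested. The 11 myelinating Schwann cell markers used were present in neurons at a median of 1.86% of their Schwann level, from 1.35% to 6.93%. Fos in neurons was at 6.99% of its Schwann level, Fosb at 7.63%, Egr1 at 11.1%, Nr4a1 at 11.6%, Atf3 at 18.0%, Jun at 35.7% and Junb at 61.4%, above that marker range, for Fos and Fosb by little. The 11 vascular markers were in neurons at 0.999% to 5.41% of their vascular level, whereas Egr1 was at 5.19% of its own, within that range. For the 11 satellite glia markers the range was 8.50% to 35.0%, and Nr4a1 and Egr1 in neurons, at 20.1% and 20.4% of their satellite glia level, lay within it, whereas Jun, Fosb, Fos and Atf3 were at 39.6%, 46.2%, 52.2% and 72.1%. Neuron markers were likewise found in the other classes. Nefm had 1398 CPM in Schwann cells and 2370 CPM in satellite glia against 1837 CPM in neurons. Syt1 had 285.5 and 433 CPM against 1208 CPM. The part of free RNA in the neuronal and in the non-neuronal values, such as those of Junb, was not tested.

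The Schwann clusters differed from each other. The 3 clusters named myelinating Schwann cells had among their leading genes Prx, Ankfn1 and Mlip (the first), Prx, Bcas1 and Il16 (the second, 607 nuclei) and Grin2b, Mlip and Bcas1 (the third, 742 nuclei), and the unnamed Grin2b-led cluster shared leading genes with the last. In this order, which is that of rising Fos level in the same nuclei, Fos was 7.16, 23.9, 32.3 and 42.7 CPM. Nr4a1 was 27.5, 40.9, 65.4 and 103 CPM, and Atf3 5.97, 17.8, 25.7 and 31.8 CPM. The same order held for Fosb (8.35 to 23.6 CPM), Egr1 (8.35 to 36.2 CPM) and Jun (39.4 to 66.8 CPM), but not for Junb, which was highest in the third at 6.62 CPM. The exact 95% Poisson interval of Fos in the first cluster, 2.63 to 15.6 CPM, lay below those of the other clusters (16.3 to 34.0, 23.0 to 44.1 and 33.8 to 53.3 CPM), which overlapped their neighbours. For Nr4a1 the interval of the Grin2b-led cluster, 88.8 to 119 CPM, lay above the others, the nearest being 51.8 to 81.5 CPM. These intervals cover counting error and not the spread between pools. Over single pools, Nr4a1 was 59.1 to 146 CPM in the Grin2b-led cluster and 15.0 to 71.9 CPM in the Schwann class, so the pool ranges overlapped. When the 9 genes and the other listed genes were left out of the genes used for clustering, 300 nuclei of the Grin2b-led cluster (47.9%) formed a cluster of 302 nuclei, with Fos at 40.9 CPM, Egr1 at 39.99 CPM and Nr4a1 at 96.5 CPM. Another 276 (44.1%) fell into a second unnamed Grin2b-led cluster of 677 nuclei, with Fos at 44.7 CPM, Egr1 at 43.8 CPM and Nr4a1 at 99.4 CPM.

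**Figure D2:**
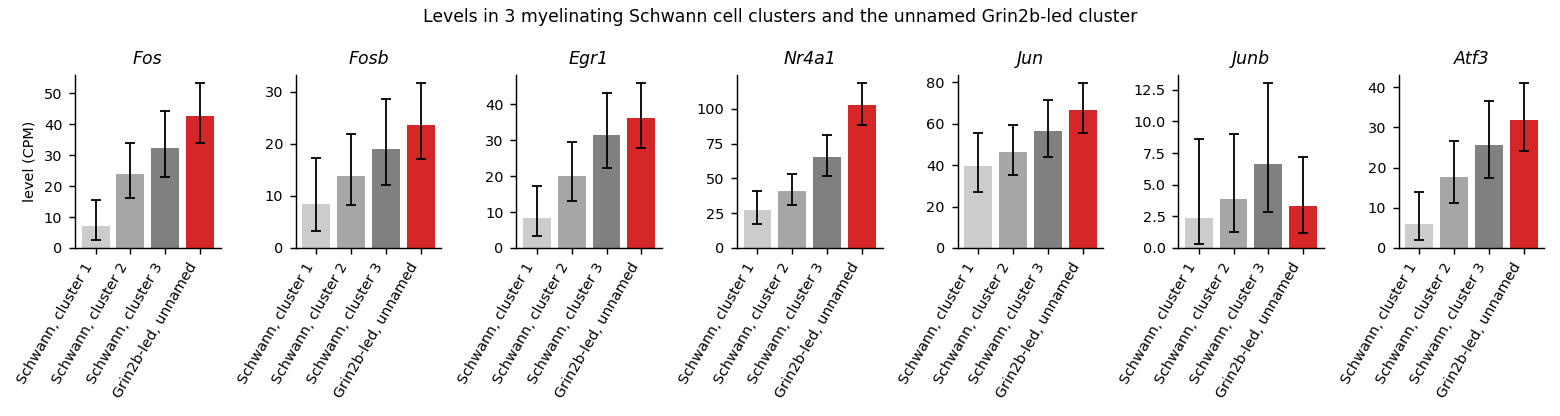
Levels (CPM) of members in the 3 myelinating Schwann clusters, numbered in the order of the text, and the unnamed Grin2b-led cluster, summed over pools, with exact 95% Poisson intervals as bars. Fos goes from 7.16 to 42.7 CPM and Nr4a1 from 27.5 to 103 CPM along the 4 clusters.

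Among vascular nuclei, 1 small endothelial cluster stood out for Fos, Fosb and Jun. Its 81 nuclei, led among others by Vwf, Pecam1 and Eln, had Fos at 69.9 CPM (exact 95% Poisson interval 34.9 to 125), Fosb at 88.9 CPM, Jun at 146 CPM and Egr1 at 76.2 CPM. The other endothelial cluster, 304 nuclei led by Cyyr1, Abcg2 and Kdr, had Fos at 4.35 CPM (1.19 to 11.1), Fosb at 1.09 CPM, Jun at 42.4 CPM and Egr1 at 22.8 CPM. The largest vascular cluster, 703 nuclei with mixed endothelial and mural markers, had Fos at 22.05 CPM (15.4 to 30.5), Fosb at 19.0 CPM and Jun at 50.2 CPM. Its Egr1, 55.1 CPM (44.3 to 67.8), lay within the interval of the small cluster (39.4 to 133). Nr4a1 had only 3 UMIs in the small cluster, too few to compare. The small cluster's Fos rests on 11 UMIs from 6 pools.

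Members were found in the same nuclei more often than their separate frequencies give. The expected number was summed within each pool and class, and for neurons within each pool and cluster, at 1000 UMIs per nucleus. In Schwann cells 39 pairs of members were detected in the same nucleus against 18.7 expected (ratio 2.09, exact 95% Poisson interval 1.48 to 2.85). The Grin2b-led cluster had 65 pairs against 25.8 (2.52, interval 1.94 to 3.21), and vascular nuclei had 40 against 15.8 (2.54, interval 1.81 to 3.45). Neurons had 17 pairs against 9.89 (1.72, interval 1.00 to 2.75) and satellite glia 10 against 7.23 (1.38, interval 0.664 to 2.55). The interval of satellite glia includes 1, and that of neurons starts at 1.00. Fos and Nr4a1, for example, were together in 8 Schwann nuclei against 1.62 expected and in no neuron against 0.330 expected, and Fos and Fosb in 4 Schwann nuclei against 0.390. Pairs of 1 nucleus are not independent, and levels differed among the clusters of a class.

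**Figure D3:**
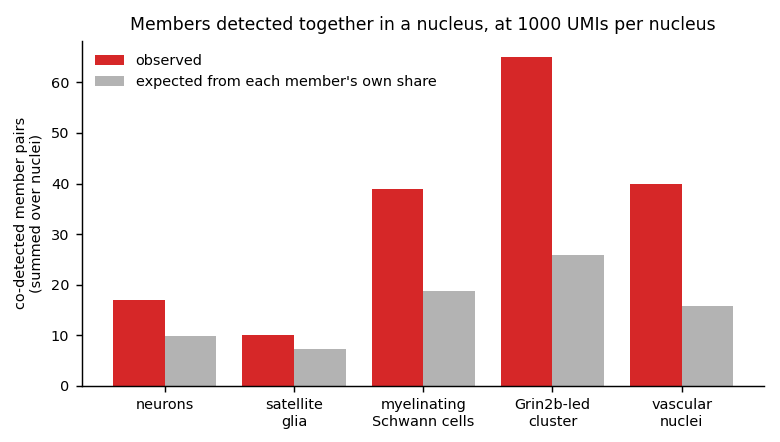
Pairs of members detected in the same nucleus at 1000 UMIs per nucleus, observed (red) and expected from each member's own frequency (grey), by class. Observed pairs are 39 against 18.7 in Schwann cells and 65 against 25.8 in the Grin2b-led cluster.

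A few single nuclei held many of the members. A Schwann nucleus of MR2 with 10788 UMIs had 31 UMIs of 7 members: Fosb and Egr1 with 7 each, Fos and Atf3 with 5 each, Jun and Nr4a1 with 3 each, and Junb with 1. A vascular nucleus of the same pool had 13 member UMIs, of which 6 were Fosb, and 5 of the 10 nuclei richest in these UMIs belonged to the Grin2b-led cluster. Without the MR2 nucleus the Schwann level of Fosb fell from 14.4 to 12.3 CPM. At 1000 UMIs, 3 or more members were found in 11 nuclei of the Grin2b-led cluster, in 4 Schwann and 4 vascular nuclei, and in none of the 26071 neurons or the 2383 satellite glia. Without thinning, 43 neurons, 9 satellite glia, 17 Schwann, 19 vascular and 40 nuclei of the Grin2b-led cluster had 3 or more.

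Across the 30 neuron clusters, Jun had the widest usable range, from 5.06 to 60.8 CPM with a median of 16.3. It was highest in a nodose cluster of 915 nuclei led by Kcna1, Spp1 and Nefh, a potassium channel, osteopontin and the heavy neurofilament, at 60.8 CPM (exact 95% Poisson interval 51.5 to 71.2). In that cluster Jun ranged over the pools from 14.8 to 116 CPM. The nodose cluster led by Lypd1 and Trhr had 49.6 CPM and the larger jugular clusters, led by Tafa1 and by Tac1, 44.3 and 40.6 CPM. The lowest were nodose clusters led by Nxph1 and Eya4 (5.06 CPM), by Xylt1 and Sctr (5.20 CPM) and by Tafa4 and Esr1 (5.22 CPM).

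The order of neuron clusters differed between members, with the Lypd1-led cluster among the highest for Jun, Nr4a1 and Egr1. Nr4a1 was highest in the Th-led nodose cluster, at 17.9 CPM (13.4 to 23.3), and in the Lypd1-led one, at 13.5 CPM (9.88 to 18.0), and the same 2 clusters had the highest Egr1, at 11.6 and 11.2 CPM. Both also carried satellite glia markers, 4 and 6 of the list at 2-fold or more above other nuclei, and the part of these in the values was not tested. Junb was highest in the Xylt1-led cluster (6.34 CPM, interval 4.51 to 8.66), which was among the lowest for Jun. Atf3 reached 8.48 CPM (6.55 to 10.8) in the Tafa4-led cluster, again among the lowest for Jun. A higher value of 8.92 CPM rested on 6 UMIs. Across the 30 clusters, which share libraries and differ in depth, Pearson's r was 0.625 between Junb and Atf3, 0.573 between Jun and Egr1, and 0.216 between Fos and Fosb, against 0.789 for Fos and Fosb over 37 clusters and classes with the non-neuronal ones. Fos had above 3 UMIs in 18 of the 30 clusters, Npas4 in 4 and Arc in none.

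**Figure D4:**
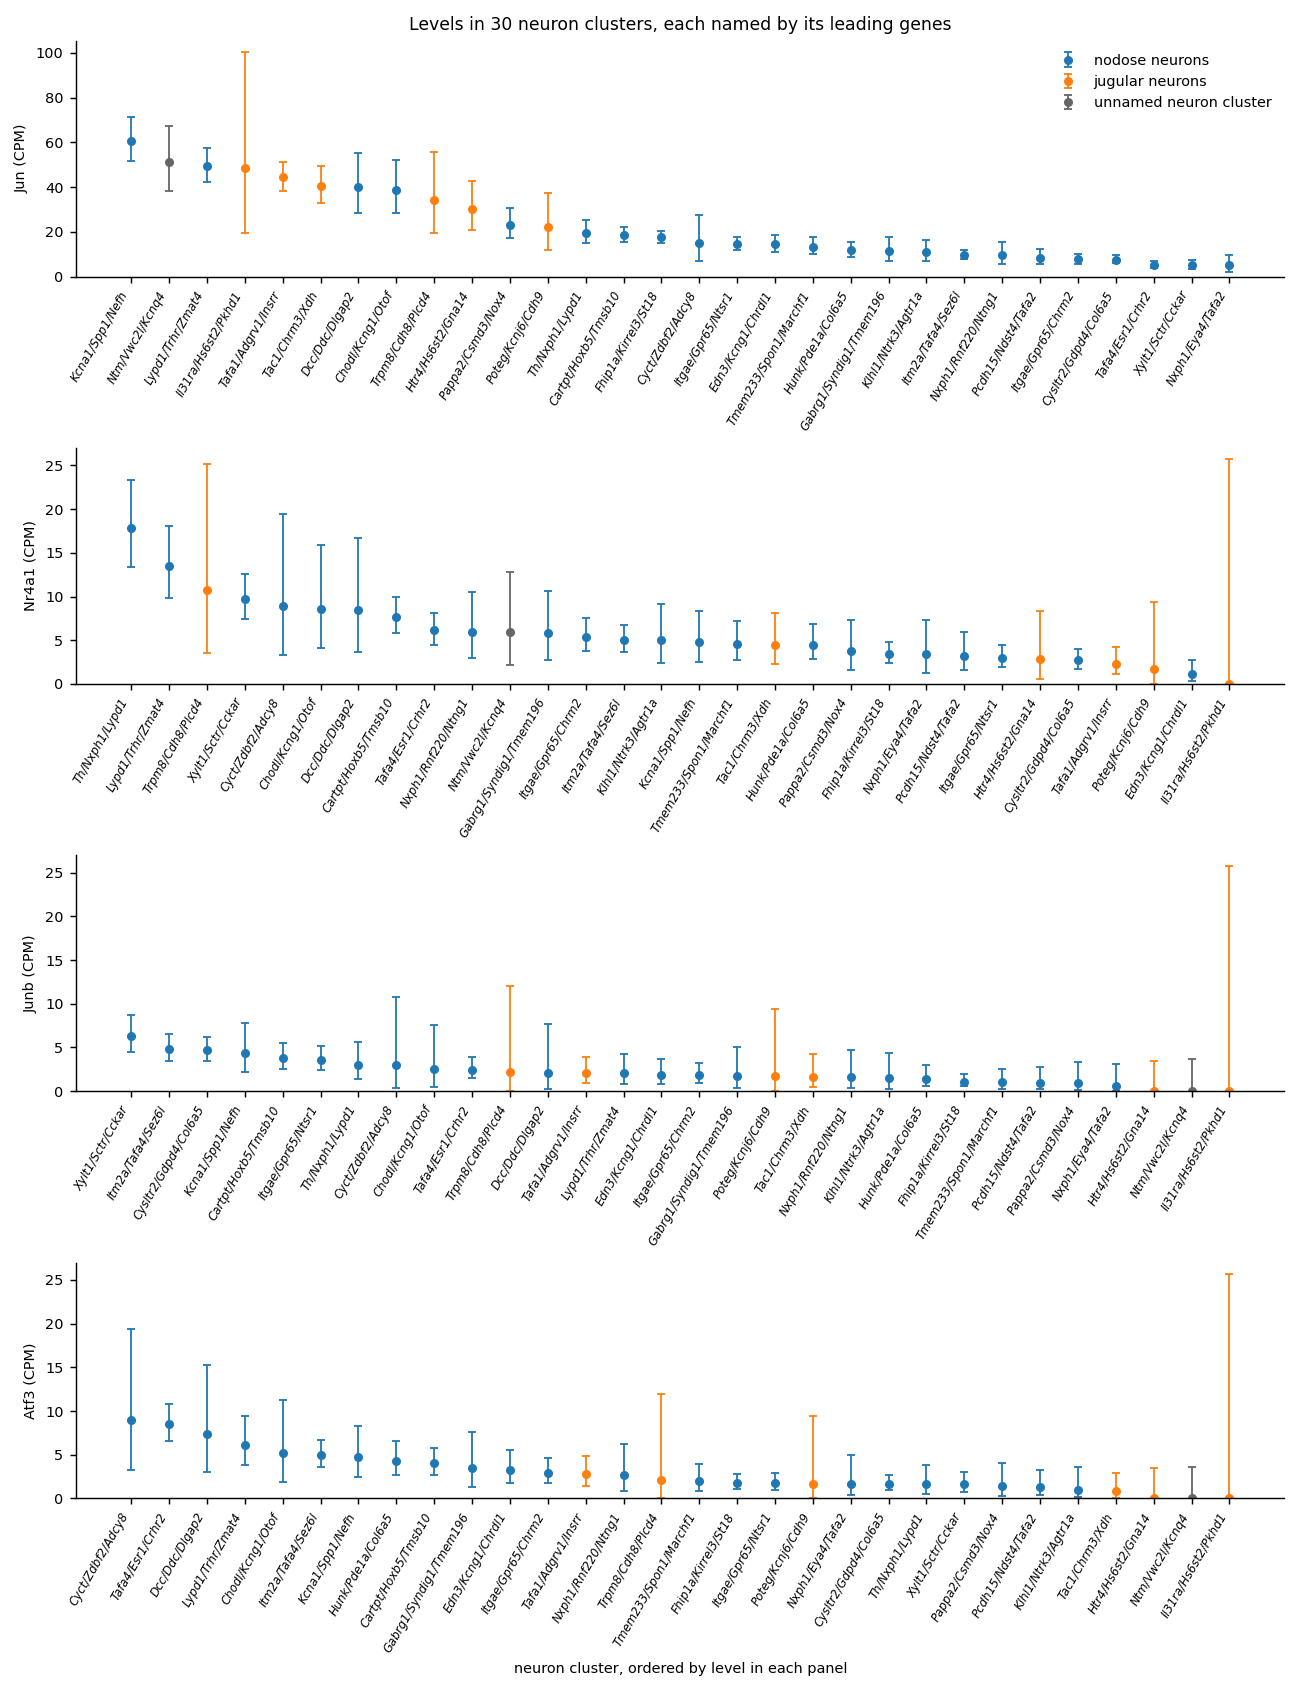
Levels (CPM) of Jun, Nr4a1, Junb and Atf3 in 30 neuron clusters, ordered by level in each panel, with exact 95% Poisson intervals; colours give nodose, jugular and unnamed clusters. Jun runs from 60.8 to 5.06 CPM, and the Tafa4-led and Xylt1-led clusters lie at opposite ends for Jun and for Atf3 or Junb.

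Genes most like the members were taken among those with at least 10 CPM in neurons, by Pearson's r of log2(CPM + 1) over 37 clusters and classes. They were Aatk, Mtss2 and Slc6a8 for Nr4a1 (r = 0.903 to 0.888) and Hipk1, Per1 and Son for Egr1 (0.858 to 0.854). For Fos they were Ankrd11, Cdc42se1 and Upf3a (0.820 to 0.807), for Fosb Nf1, Stk10 and Wwc2 (0.796 to 0.794) and for Jun Pik3r1, Clcn5 and Tle3 (0.809 to 0.770). For Atf3 they were Map3k4, Snx16 and Gtf2h1 (0.732 to 0.725), and for Junb Ctsz and Bambi (0.726 and 0.716) led. Over the 12 pools in neurons, the most alike genes were others for every member, for example Smad5 for Fos (0.903) and Stx7 for Jun (0.930). These are the highest of about 8899 correlations each.

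Related genes fixed as lists were compared in the same way. Of 39 other immediate early and activity genes with an entry, 28 (71.8%) were higher in Schwann cells than in neurons and 33 (84.6%) in vascular nuclei, against 45.04% and 46.5% of all 23547 genes with a UMI. Egr2, a myelination factor that is also a Schwann marker here, had 39.8 CPM in Schwann cells and 0.754 CPM in neurons. The flow-responsive endothelial factors Klf2 and Klf4 had 49.1 and 29.2 CPM in vascular nuclei and 0.629 and 0.494 CPM in neurons. The 3 most abundant of the list in neurons were Homer1 (81.5 CPM, 34.4 in Schwann cells), Klf6 (54.5 and 96.7 CPM) and Bdnf (44.7 and 17.7 CPM). Egr2, Klf2 and Klf4 were named after their values were seen.

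Of the injury and regeneration genes, 10 of 26 (38.5%) were higher in Schwann cells than in neurons and 15 of 26 (57.7%) in satellite glia, beside 45.04% and 50.6% of all genes. The most abundant in neurons were the neurotrophin receptor Ngfr (1044 CPM), the calcium channel subunit Cacna2d1 (570 CPM) and the growth cone gene Gap43 (482 CPM), which uninjured sensory neurons also express. The 26 genes ranged in neurons from 1 UMI (the cytokine gene Il6) to 116270 UMIs (Ngfr). Stress and chaperone genes were higher in Schwann cells than in neurons for 3 of 10, and Hsp90aa1, Hsph1 and Hspa5 led in neurons with 306, 174 and 146 CPM. Of upstream regulators, 12 of 20 with a UMI were higher in Schwann cells, and Mapk10, Camk4 and Mef2a led in neurons with 676, 435 and 243 CPM.

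No member differed between left and right ganglia at an adjusted p under 0.05. The test was edgeR's quasi-likelihood test on UMIs summed per pool, adjusted by Benjamini-Hochberg over all genes, with labelled sex as a second term. In neurons 7 members passed the filter on low counts and 0 were called, beside 0.133% of 14260 genes called. Fosb came nearest: the left pools had 0.733, 0.846, 1.01, 0.901, 0.814 and 0.738 CPM in ML1 to ML3 and FL1 to FL3, and the right pools 1.23, 1.17, 1.35, 0.979, 1.94 and 1.31 CPM in MR1 to MR3 and FR1 to FR3. Only FR1 lay within the left range. The fitted difference was a log2 fold change of 0.66 (SE 0.23; edgeR unadjusted p = 0.0121, adjusted p = 0.637), from 5 to 21 UMIs per pool. The other 6 members had log2 fold changes between -0.16 and 0.19, with adjusted p of 0.917 or more.

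**Figure D5:**
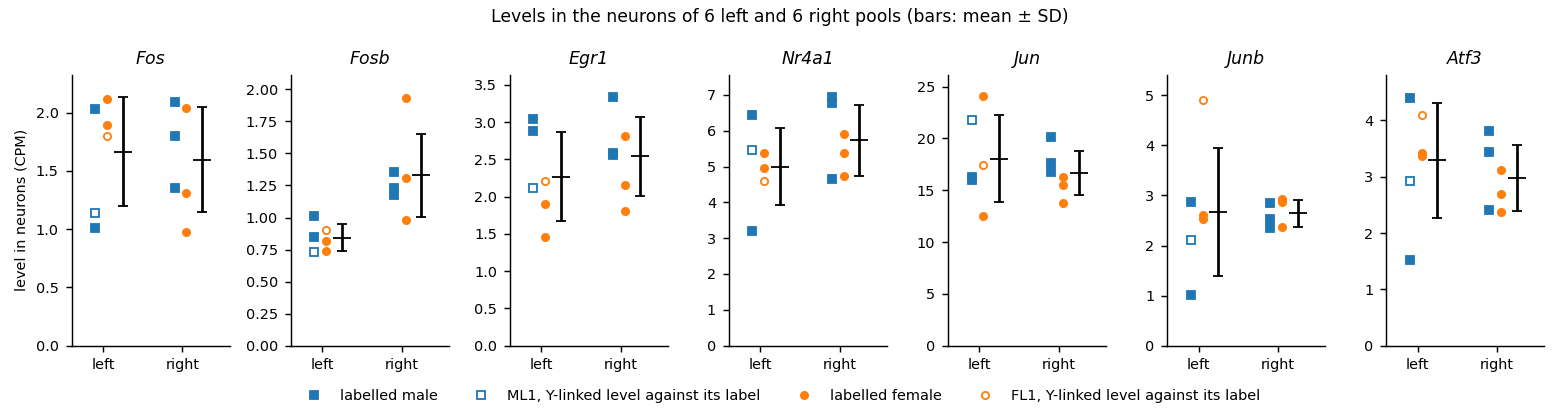
Levels (CPM) of 7 members in the neurons of the 6 left and 6 right pools; squares are male-labelled and circles female-labelled pools, open symbols are ML1 and FL1, and bars are the mean ± SD. Fosb is 0.733 to 1.01 CPM on the left and 0.979 to 1.94 CPM on the right, and FL1 lies apart for Junb at 4.91 CPM.

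In the other classes, few members passed the filter on low counts. In Schwann cells Jun and Nr4a1 were tested by side and 0 were called (0% of 4935 genes called). Nr4a1 there was 15.0 to 55.9 CPM on the left (33.2 ± 16.9, SD, n = 6 pools) and 36.9 to 71.9 CPM on the right (57.3 ± 13.2, SD, n = 6 pools), overlapping, with a log2 fold change of 0.71 (SE 0.29; edgeR adjusted p = 0.810). In satellite glia Jun and Nr4a1 were tested and 0 called (0% of 9272 genes), with log2 fold changes of -0.03 and 0.06. In vascular nuclei Jun and Egr1 were tested and 0 called (0.125% of 5581 genes), with -0.31 and 0.02. Fosb could not be tested in these classes; its right and left means were 16.8 ± 6.70 and 11.2 ± 11.2 CPM in Schwann cells and 24.5 ± 20.5 and 20.04 ± 21.9 CPM in vascular nuclei (SD, n = 6 pools each).

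Summed over all nuclei of a pool, as an alternative chosen after the data were seen, Fosb was 1.03 to 2.38 CPM on the left and 2.08 to 3.77 CPM on the right. The log2 fold change was 0.89 (SE 0.21; edgeR adjusted p = 0.299), and that of Egr1 was 0.43 (SE 0.14; edgeR adjusted p = 0.566). Again 0 of 7 members tested were called (0.0403% of 14883 genes). In such sums, more nuclei of a class and more RNA per nucleus cannot be told apart. The share of neurons was 73.5% to 86.8% in left pools and 53.4% to 79.9% in right pools, and its part in these values was not tested.

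Between the labelled sexes, no member was called either. In neurons 0 of 7 were called, beside 0.126% of 14260 genes. Egr1 was 1.47 to 2.82 CPM in female-labelled pools (2.06 ± 0.457, SD, n = 6) and 2.12 to 3.34 CPM in male-labelled pools (2.75 ± 0.427, SD, n = 6), overlapping, with a log2 fold change of -0.42 (SE 0.18; edgeR unadjusted p = 0.0333, adjusted p = 0.244). Without ML1 and FL1 it was -0.53 (edgeR adjusted p = 0.224). Junb had the next largest change, 0.42 (SE 0.23; edgeR adjusted p = 0.380), and 0.18 without ML1 and FL1 (edgeR adjusted p = 0.757). FL1 had 4.91 CPM of Junb, from 60 UMIs, and the 11 other pools 1.02 to 2.94 CPM, and FL1 was also the highest pool for Npas4, with 12 of the 41 neuronal UMIs. In satellite glia, Schwann cells and vascular nuclei, 0 of 2 members each were called, beside 0.0108%, 0% and 0% of genes. The interaction of side and labelled sex in neurons called 0 of 7 members and 0% of genes.

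The listed genes gave no call by side or by labelled sex in any class tested. In neurons, 31 of the 40 other immediate early genes were tested by side, with a median log2 fold change of -0.01 beside 0.00 over all genes, and 1 had an unadjusted p under 0.05. Of the 17 injury genes tested, 2 did, and of the 10 stress genes 3. By labelled sex, 6 of 31 immediate early, 5 of 17 injury and 4 of 10 stress genes had an unadjusted p under 0.05. These counts have no share over all genes beside them here and are not read as a difference of the lists. Of 10 stress genes tested, 0 had a positive log2 fold change by side and 9 by labelled sex. Their medians were -0.16 and 0.20, beside -0.0014 and 0.0029 over all genes, and genes of a list may vary together. By labelled sex the smallest adjusted p was 0.0695, for the orphan receptor gene Nr4a2 (log2 fold change 0.52, SE 0.12, edgeR), a gene named after its value was seen; Hsp90aa1 had 0.0799 (log2 fold change 0.42, SE 0.11). Without ML1 and FL1 these were 0.54 (edgeR adjusted p = 0.0766) and 0.43 (edgeR adjusted p = 0.110).

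The spread between pools in neurons was close to counting error for Fos, Fosb and Egr1, whose SD over pools was 1.07, 1.00 and 1.11 times the SD expected from counting alone. It was larger for Jun (2.40 times) and Junb (1.61 times). Jun in neurons was highest in FL2 (24.1 CPM) and ML1 (21.8 CPM), the pools in which jugular neurons made up the largest part of nuclei (14.7% and 17.3%, against 1.04% to 9.50% elsewhere). Within nodose neurons alone these pools had 17.1 and 16.4 CPM, and the 10 other pools 11.4 to 17.3 CPM. The part of the jugular share in the spread of Jun was not tested. Between the 8 sublibraries, across which every pool was spread, the SD was 0.449 to 1.19 times the counting SD over the 9 genes in neurons.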

How the data were processed

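Single-nucleus RNA was measured with Evercode version 2 kits, in 8 sublibraries that each hold all 12 pools. The authors deposited raw UMI counts per nucleus and gene, with no normalisation, and a table giving each nucleus its pool, per the file headers. The submitters' processing notes name mRatBN7.2, R 4.3.2 and Seurat 4.1.3; no aligner or barcode filter is given in the sources used here. Depth was 7139364 to 19456287 UMIs per pool.

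The 9 genes, the lists and the tests were chosen with earlier results of these data known. Kept nuclei had 300 or more genes and no more than 5% of UMIs from mitochondrial genes. Scrublet (scanpy 1.11.5) called 2 doublets and so hardly worked; an alternative left out the top 5% by score. No barcode was shared between sublibraries. Clusters were named from fixed marker lists (at least 3 markers 2-fold higher, 1.5-fold for neurons; pseudocount 5 CPM). UMIs were summed per pool and class with at least 20 nuclei in every pool; endothelial nuclei fell below this in 2 pools, so vascular nuclei took their place. Tests used edgeR 4.0.16 under R 4.3.3 (TMM, filterByExpr, Benjamini-Hochberg), checked on simulated data. DESeq2 1.42.0 and limma 3.58.1 were alternatives, with other filters, clustering and pools. Listed genes are named if called and otherwise as the 3 with the highest CPM in neurons; exceptions are stated. P-values measure spread between pools of 6 rats, which may share rats across sides.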

Additional observations from a re-analysis of the deposited data

Results flagged for a closer look

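Fos in neurons was 1.967 CPM in sublibrary 1, from 25 UMIs, and 1.647 CPM in the next highest. This gap was 0.536 of the range over 8 sublibraries, above Dixon's 95% critical value of 0.526. It was 1 of 18 sets of sublibrary values tested (9 genes in neurons and in all nuclei), and chance marks about 1 in 20.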

How the results depend on the processing

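No member was called in any of 204 alternative tests of the 9 counts (range 0 to 0), covering other normalisations, DESeq2, limma, no filter on low counts, other nucleus filters and clusterings, and left-out pools. The lowest adjusted p of a member was 0.2, by labelled sex in neurons without MR1. The log2 fold changes in neurons kept their sign in 231 of 245 alternatives. Without ML1 and FL1 together, Atf3 by labelled sex went from 0.02 to -0.10, Fos by labelled sex from 0.10 to -0.0422 and Junb by side from -0.07 to 0.21. Leaving out 1 pool gave ranges of -0.10 to 0.12 for Atf3 and -0.034 to 0.22 for Fos by labelled sex, -0.21 to 0.0218 for Fos by side, -0.0522 to 0.17 for Fosb by labelled sex, and -0.19 to 0.21 for Junb by side; Fosb by side stayed between 0.53 and 0.73. The replicate block turned Junb by side to 0.0092. Between left and right pools of the same replicate number, correlations of deviations were -0.191 to 0.334. They cannot show whether such pools share rats, and some of these pairs hold ML1 or FL1. With the block, genes called by side in neurons went from 19 to 2. No block by labelled sex or for the interaction could be had because the sexes have different numbers. Over all genes in neurons, calls by side ranged from 1 (without ML1 and FL1) to 66 (DESeq2), and by labelled sex from 0 (without ML2, MR2, MR3, FL2, FL3, FR1 or FR2 each) to 528 (no filter), with 18 as reported and 121 without ML1 and FL1. Ratios of levels between classes stayed within the spread of pools in 370 of 371 alternatives; Nr4a1 in Schwann cells over neurons was 12.98 at clustering resolution 0.5. Joint detection in the Grin2b-led cluster was 1.75 times the expectation at 2000 UMIs and 1.78 times without thinning, against 2.52, and of 54 shares 24 moved with depth or doublet removal.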
